A study of Mus musculus with 12 samples.

Results

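In this set were 114 autosomal genes that were read almost only from the 129 allele in at least 1 neural progenitor cell (NPC) clone and almost only from the Cast allele in at least 1 other. They were chosen from 14415 autosomal genes (14899 genes in all) by their allele shares. Among the 8 NPC clones, counting clones with at least 100 allele-informative counts, at least 1 clone had a 129 share of 85% or more and at least 1 had a share of 15% or less. Of the autosomal genes, 141 (0.978%) met these limits, and 27 of them were left out by name: solute carriers, protocadherins, zinc finger genes named Zfp, unannotated fragments and a few single genes. The allele shares of the NPC clones therefore chose the genes, and they are given below as a description without a test.

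RNA was from hybrid mouse cells that carry 1 genome of the strain 129Sv and 1 of Cast/EiJ in every group. NPCs are self-renewing cells of the neural lineage grown in culture, here derived from embryonic stem (ES) cells. The XX NPC group held 4 clones (NPC_XX_129, C2, G4 and E1.2) grown from the ES line F1-21.6, and the XY NPC group held 4 clones (mC3, mE6, mB4 and mG3) grown from the ES line F1-23. The undifferentiated lines, ES_XX (F1-21.6) and ES_XY (F1-23), gave 1 library each and had been kept on inactivated mouse embryonic fibroblasts in medium with serum and leukaemia inhibitory factor. Each library is 1 measurement of its clone or line, so the value of a single clone has no replicate error.

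In random monoallelic expression, a cell transcribes 1 of the 2 alleles of an autosomal gene, and sister cells may use the other allele. The choice is kept through cell division, so that a clone grown from 1 cell shows the same allele in all its cells. It differs from genomic imprinting, in which the parent of origin sets the allele. Olfactory receptors and antigen receptors are the classic examples, and many genes with other functions have been described.

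Total allele-informative counts per library ran from 61375911 to 119266777. The progenitor markers Nes, Fabp7 and Olig2 were at 73.0 to 347, 1533 to 3426 and 260 to 381 FPKM in the NPC clones, against at most 13.1, 0.0295 and 0 FPKM in the ES lines. Esrrb, an ES cell factor, was at 0.486 to 1.90 FPKM in NPC clones and at 187 and 227 FPKM in ES lines. Over 10 markers of fibroblasts and mesenchyme, FPKM summed to between 11.4 and 144 in NPC clones (highest in E1.2) and to 290 in ES_XX and 425 in ES_XY. In NPC_XX_129, 50 of the 114 genes had fewer than 100 counts, more than in any of the other 7 clones (10 to 29). This clone also had the lowest total of the NPC clones (66611144). Of 14415 autosomal genes, 10619 had at least 100 counts in it, against 10858 to 11550 in the other 7. No autosome had shifted to 1 allele, since the median 129 share per chromosome lay between 49.3% and 50.5% for all 19 autosomes in all 10 libraries.

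Promoter sequences of 5 genes that carry the results below are shown first: the neighbours Hoxd9 and Hoxd8, which switched allele in the same clones; Foxl2, whose start lies beside that of its antisense transcript; Fam149a, which had 3 clones of the 129 allele and 2 of the Cast allele; and Insig1, 1 of the most highly expressed genes of the set. Each is the 250 bases before the RefSeq start, in the build GRCm38.p6 and 5′ to 3′ on the gene's strand, with CG dinucleotides (the target of DNA methylation) in capitals. Hoxd9 is at chr2:74697513-74697762 (plus strand), Hoxd8 at chr2:74704365-74704614 (plus), Foxl2 at chr9:98955357-98955606 (plus), Fam149a at chr8:45382292-45382541 (minus) and Insig1 at chr5:28071162-28071411 (plus).
Hoxd9: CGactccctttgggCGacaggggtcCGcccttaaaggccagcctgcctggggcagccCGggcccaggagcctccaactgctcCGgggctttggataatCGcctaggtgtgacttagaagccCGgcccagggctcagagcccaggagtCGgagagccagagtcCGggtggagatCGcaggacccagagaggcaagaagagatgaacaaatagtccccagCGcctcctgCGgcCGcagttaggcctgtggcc
Hoxd8: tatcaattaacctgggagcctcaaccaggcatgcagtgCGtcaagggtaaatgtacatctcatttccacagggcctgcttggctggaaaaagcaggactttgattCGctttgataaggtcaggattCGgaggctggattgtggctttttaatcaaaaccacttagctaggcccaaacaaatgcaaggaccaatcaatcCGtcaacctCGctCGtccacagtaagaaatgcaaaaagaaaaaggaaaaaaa
Foxl2: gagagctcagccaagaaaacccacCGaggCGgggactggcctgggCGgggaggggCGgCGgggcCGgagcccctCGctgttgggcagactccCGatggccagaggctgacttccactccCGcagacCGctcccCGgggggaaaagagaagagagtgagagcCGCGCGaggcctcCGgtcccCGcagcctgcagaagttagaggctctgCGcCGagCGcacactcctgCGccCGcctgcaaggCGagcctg
Fam149a: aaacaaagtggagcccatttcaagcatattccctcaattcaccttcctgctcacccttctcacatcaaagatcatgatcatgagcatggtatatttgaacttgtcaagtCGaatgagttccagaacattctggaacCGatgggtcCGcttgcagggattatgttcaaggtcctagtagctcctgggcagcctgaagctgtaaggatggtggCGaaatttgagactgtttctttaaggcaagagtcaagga
Insig1: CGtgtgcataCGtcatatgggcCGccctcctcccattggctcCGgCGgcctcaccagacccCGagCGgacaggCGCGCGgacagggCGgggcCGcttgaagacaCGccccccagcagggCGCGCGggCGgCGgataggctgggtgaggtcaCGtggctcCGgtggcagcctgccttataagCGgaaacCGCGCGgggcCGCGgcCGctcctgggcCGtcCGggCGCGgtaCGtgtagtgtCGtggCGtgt
These windows held 13 CG in Hoxd9, 6 in Hoxd8, 22 in Foxl2, 4 in Fam149a and 34 in Insig1, so CG-rich and CG-poor RefSeq starts both occurred. The Hoxd9 and Hoxd8 windows lie further apart than the mm9 starts of these genes given below. A RefSeq start may therefore differ from the start of the measured gene, and which start was used in the clones was not tested. Over the 80 genes of the set with a RefSeq promoter, the count in this window ran from 2 to 35. In the full window of 300 bases, which adds 50 bases after the start, the median was 15 CG in the set and 21 over 10352 autosomal genes of the table, and 72.5% of the set and 80.1% of those genes had at least 10. The motif TATAAA, searched on both strands and sharing no letters with a CG, was present in 8 of the 80 promoters (10%) and in 7.13% of the 10352. The promoter window of Foxl2os, at chr9:98955311-98955560 on the minus strand, overlaps that of Foxl2.

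Most of the 114 genes were also read from both alleles in some clone: 94 had at least 1 clone with a 129 share of 30% to 70%, beside their 129 clones and their Cast clones. Over all clones there were 333 one-allele readings, 156 of the 129 allele and 177 of the Cast allele. More 129 than Cast clones were found for 24 genes, more Cast than 129 clones for 30, and equal numbers for 60. In 55 genes the pattern rested on exactly 1 clone of each allele, and 8 genes had at least 2 clones of each. The switch could be seen among the XX clones alone in 38 genes, among the XY clones alone in 29, within both lines in 3 and only between the lines in 44. The map of 129 shares shows these readings scattered over the clones.

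**Figure D1:**
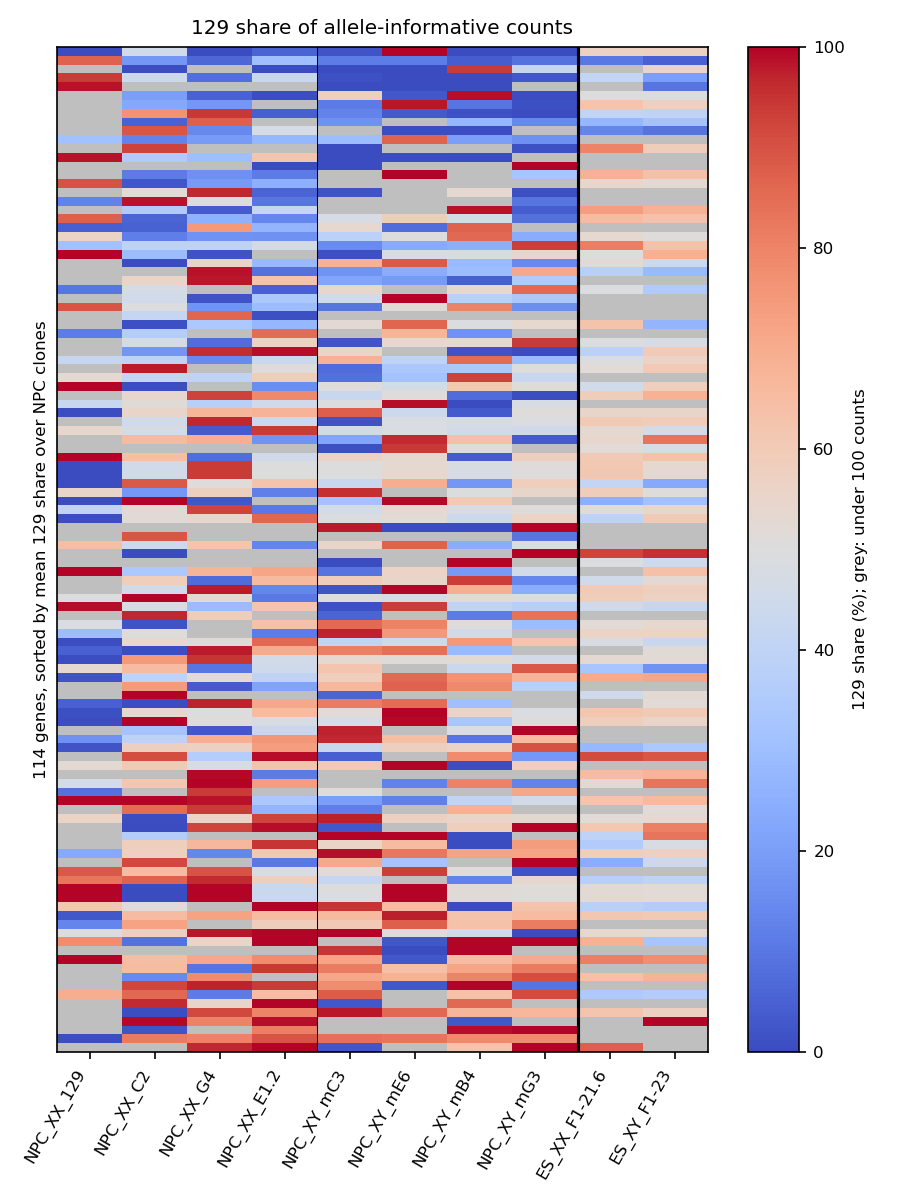
Map of the 129 share of allele-informative counts (colour, 0 to 100%) for the 114 genes (rows, sorted by mean share over NPC clones) in the 4 XX NPC clones, the 4 XY NPC clones and the 2 ES lines (columns); grey cells had fewer than 100 counts. Dark red and dark blue cells occur in the same row by the way the genes were chosen, and the ES columns are mostly pale.

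A one-allele reading rested on a median of 758 counts, and its exact (Clopper-Pearson) 95% interval had a median width of 2.23 points and at most 14.2 points. The whole interval lay past the limit for 280 of the 333 readings (84.1%). These intervals cover counting error only. At the limits themselves, the genes nearest inside were 1520402A15Rik (shares from 14.66% to 85.02%), the homeobox gene Msx1 (highest share 85.03%) and Hopx (lowest share 14.9%). The nearest outside were AI429214 (lowest share 15.1%), Atp13a4 (lowest share 15.1%) and Prex2 (highest share 84.9%).

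Of the 114 genes, 105 are annotated as protein-coding and 5 as long intergenic RNAs, and 4 had no match in the mm9 annotation. They form 109 separate loci, because 10 genes overlap another gene of the set, in 5 pairs. Trim35 with 1700001G11Rik, Fam111a with A330040F15Rik and Foxl2 with Foxl2os had nearly the same counts. The other pairs did not: Pla2g7 had 34480 counts in E1.2 and its partner NR_045445;NR_045444 had 2323, and Vax2 had 1131 counts in NPC_XX_129 and the Vax2os row 2807. Counting genes outside the set as well, 19 of the 114 overlap another measured gene, among them the imprinted genes Airn, Peg13 and Nap1l5. Whether reads of the overlapping genes entered their shares was not tested. All autosomes except chromosome 16 (0 of 471 genes) held at least 2, and chromosome 6 held 14 (1.92% of its genes in the table). Over all autosomes the share was 0.791%. Expression was low in general, with a median of 2.42 FPKM (mean over the NPC clones) against 10.5 FPKM for 11662 autosomal genes with at least 100 counts in 2 clones. Still, 22 genes reached 10 FPKM.

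Genes with at least 2 clones of each allele were described first. Fam149a, a little-studied protein-coding gene (mm9, chromosome 8, 46422069 to 46467645), had a 129 share of 0.272% in C2 (95% interval 0.166% to 0.420%, 7352 counts), 2.88% in mC3, 92.3% in G4, 99.2% in E1.2, 99.7% in mG3 (99.5% to 99.9%, 4312 counts) and 58.6% in mB4. In NPC_XX_129 and mE6 it had 40 and 3 counts. All 3 kinds of clone, 129, Cast and both, thus occurred at similar depth, and 2 clones had almost no transcript. Acyp2, which encodes the acylphosphatase 2 enzyme (chromosome 11, 30405992 to 30549710), had 0 counts in all 4 XX clones, and shares of 97.7%, 0.276%, 0.220% and 100% in mC3, mE6, mB4 and mG3, on 252 to 455 counts. Its alleles were therefore split evenly among the XY clones.

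Ltbr, the lymphotoxin beta receptor of the tumour necrosis factor family (chromosome 6, 125256589 to 125263888), had shares of 96.0% in G4 and 99.0% in E1.2, against 1.86% in mB4 and 0.288% in mG3. C2 (17.7%) and mC3 (55.8%) lay between, and NPC_XX_129 and mE6 had 0 and 5 counts. So the 129 clones of Ltbr were XX and its Cast clones XY. Grik2, a kainate-type glutamate receptor subunit, came from 129 in C2 (91.9%), G4 (97.0%), E1.2 (94.1%) and mB4 (100%) and from Cast in mE6 (2.92%) and mG3 (9.09%), with mC3 at 77.9%.

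The row E330016A19Rik, named Cgas in RefSeq (the cytosolic DNA sensor), had shares of 100% in E1.2, mB4 and mG3 and of 8.77% and 2.53% in C2 and mE6. For 1110021L09Rik (Slc18b1 in RefSeq), shares were 100% in C2 and 99.5% in mE6, against 0.157% in NPC_XX_129 and 2.71% in G4, and mB4 read both alleles (60.3%). In 2010002N04Rik (Smim3 in RefSeq), G4 (98.0%) and mE6 (100%) stood against E1.2 (13.7%) and mC3 (2.17%), and C2 read both alleles (45.9%). Foxl2os, the antisense transcript of the forkhead factor gene Foxl2, came from 129 in G4 (97.1%) and, at 85.0%, mE6, and from Cast in NPC_XX_129 (4.87%) and C2 (0.615%). The counts of Foxl2os and Foxl2 run in parallel over all libraries, and without a statement of strand their reads cannot be told apart.

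Lipid genes included the most highly expressed members. Scd2, a stearoyl-CoA desaturase that makes monounsaturated fatty acids in brain (chromosome 19, 44367976 to 44381352), had between 422743 and 1001458 counts per NPC clone. Its share was 0.590% in C2 (95% interval 0.567% to 0.614%), 97.6% in mC3 and 92.5% in E1.2, and 54.1% to 56.8% in the other 5 clones. The level in the 3 one-allele clones was 416, 524 and 422 FPKM for C2, mC3 and E1.2, against 884 to 1042 FPKM in the 5 both-allele clones, without overlap. Scd1, the neighbouring desaturase gene (44468940 to 44482366), was read from 129 in G4 (98.0%), E1.2 (100%) and mC3 (99.9%) and from Cast in mG3 (0.362%). In the other 4 clones its share was 45.6% to 57.8%.

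Scd1 stood at 5.03, 59.7, 81.1 and 70.3 FPKM in its one-allele clones G4, E1.2, mC3 and mG3, against 122 to 191 FPKM in the both-allele clones, again without overlap. Insig1, which holds the sterol-sensing SCAP-SREBP complex in the endoplasmic reticulum (chromosome 5, 28397631 to 28405217), came from 129 alone in C2 (100%, 95% interval 99.9% to 100%, 4355 counts) and mostly from Cast in E1.2 (10.2%). The other 6 clones had shares of 47.0% to 52.5%. C2 and E1.2 had 47.2 and 70.8 FPKM, against 69.2 to 145 FPKM in the both-allele clones, so the levels overlapped.

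Lpl, lipoprotein lipase, had a share of 0.482% in C2 against 91.7% in G4, 98.1% in mC3 and 85.9% in mE6, and 0 counts in NPC_XX_129. Pla2g7, which inactivates platelet-activating factor, was at 90.7% in C2 and 99.2% in E1.2, with 5068 and 34480 counts, and at 4.64% in mC3. Cyp2j6 and Cyp2j9, neighbouring cytochrome P450 epoxygenase genes of similar sequence, read Cast in C2 (2.15% and 5.34%), while mB4 read 129 (99.0% and 86.8%). Reads of such paralogs can be assigned to the wrong copy, so their shares are less certain.

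**Figure D2:**
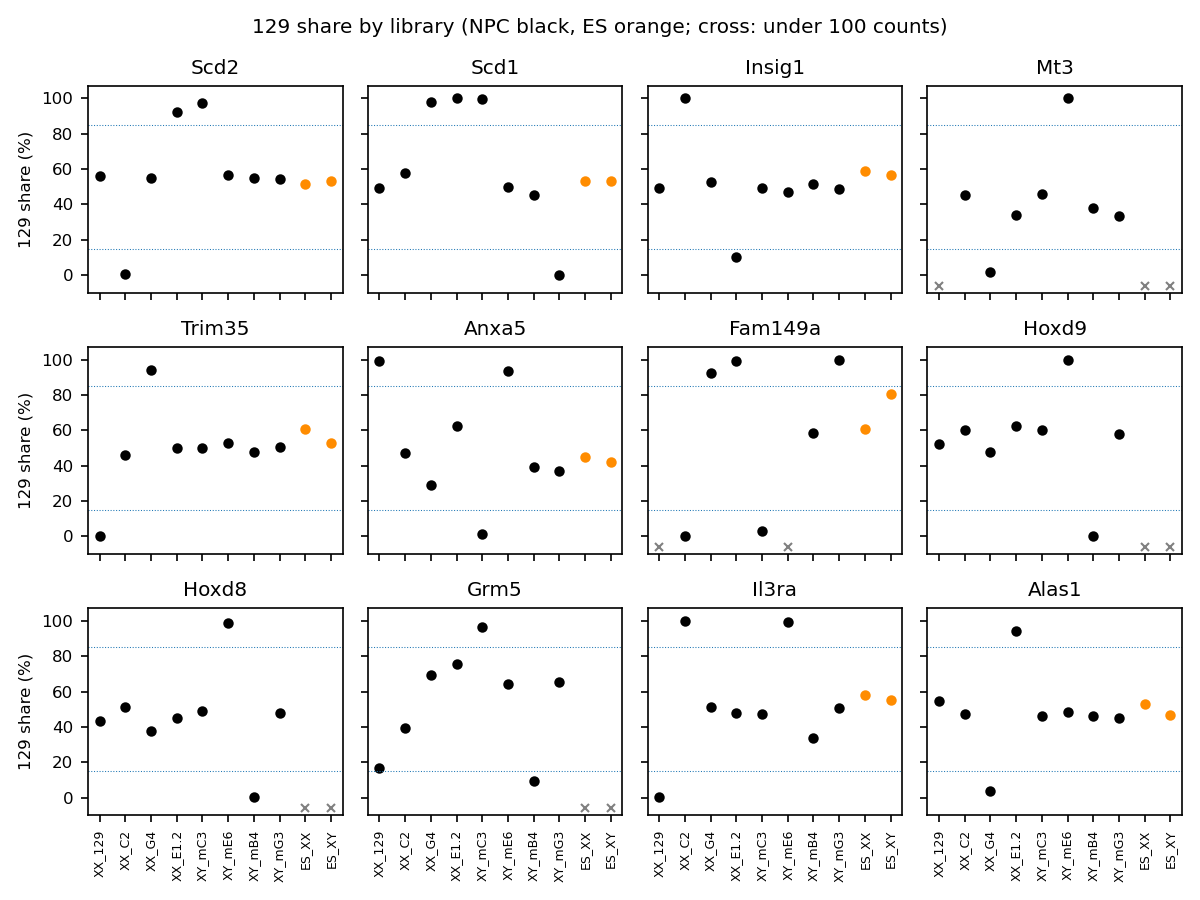
The 129 share (%) of 12 genes in each library; black points are NPC clones, orange points ES lines, crosses libraries with fewer than 100 counts, and dotted lines the limits of 85% and 15%. Scd2, Insig1, Trim35 and Alas1 sit near 50% in most clones with a few clones at either edge, Scd1 does so in 4 of 8 clones, and Fam149a has clones at 0.272% and at 99.7%.

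Developmental transcription factors and their cofactors made up 13 of the genes (this and the following role groups were formed after the values had been seen). Hoxd9 and Hoxd8 are neighbouring homeobox genes of the HoxD cluster that set position along the body axis (chromosome 2, 74535820 to 74538265 and 74541065 to 74546120). Hoxd9 had shares of 99.6% in mE6 (95% interval 98.0% to 100%, 272 counts) and 0.476% in mB4 (0.0121% to 2.62%, 210 counts), and of 47.7% to 62.6% in the other 6 clones. Hoxd8 had shares of 99.0% in mE6 and 0.217% in mB4, and of 37.9% to 51.5% in the other 6. Both genes therefore used 1 allele in the same 2 XY clones, and the same allele in each, while the XX clones read both.

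Dbx2, a homeobox gene of the ventral neural tube, came from Cast in G4 (2.84%, 4121 counts) and from 129 in mC3 (96.9%) and mG3 (100%), with 13413 counts from both alleles in E1.2 (42.7%). Tbx15, a T-box factor, was at 100% in G4 and at 12.6% and 13.2% in mE6 and mG3. Prdm8, a PR-domain factor, was at 92.7% in mB4 and 8.21% in mC3. Eya4 read 129 alone in NPC_XX_129 (100%) and mostly Cast in mC3 (9.06%), and Eya2, a cofactor of the same family, had 0.645% in NPC_XX_129 and 89.8% in E1.2. Eya2 lay between 78.1% and 84.2% in the other 6 clones, so 129 predominated in most.

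Receptors and regulators of inflammation and cell death included Il3ra, the alpha chain of the interleukin-3 receptor. Its share was 0.522% in NPC_XX_129, 99.8% in C2 and 99.6% in mE6, and 33.5% to 51.0% in the other 5 clones. Tnfrsf10b, the mouse death receptor for TRAIL, was at 100% in NPC_XX_129 and at 7.51% and 3.52% in G4 and mB4. Cflar, which blocks caspase-8 activation, had shares of 100%, 100% and 98.5% in NPC_XX_129, C2 and G4 and of 12.1% in mE6. Il1r1, the interleukin-1 receptor, came from 129 in mE6 (96.2%) and from Cast in mG3 (3.65%). Switches in this group thus occurred in clones of either line.

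Genes of ion channels, glutamate receptors and neuronal proteins numbered 9. Grm5, the metabotropic glutamate receptor 5 (chromosome 7, 94732481 to 95283573), had shares of 96.5% in mC3 and 9.60% in mB4, and ran from 16.6% to 75.4% in the other 6 clones. Kcnk13, a potassium leak channel, was at 94.5% in E1.2 and 9.65% in G4. The activity-regulated gene Arc had 98.7% in mB4, against 3.65% in G4 and 4.04% in mG3, and C2 and E1.2 read both alleles (35.3% and 41.9%). In Grm5, NPC_XX_129 and E1.2 had shares outside both the one-allele and the both-allele range, whereas no readable clone did in Arc.

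In DNA repair and nucleic acid editing, Smug1, a uracil DNA glycosylase, had a share of 1.05% in NPC_XX_129 and 99.9% in mE6, and 48.8% to 65.2% in the other 6 clones, on at least 3699 counts each. Nsmce1, a subunit of the SMC5/6 complex, was at 0.413% in NPC_XX_129 and 94.7% in G4. Neil3, a DNA glycosylase, was at 95.4% in mC3 and 12.4% in E1.2, with 5 counts in mE6. Apobec1, the editing enzyme of apolipoprotein B mRNA, read 129 in G4 (92.8%) and Cast in mB4 (7.13%) and mG3 (0.461%). In the pair of Smug1 and Nsmce1, NPC_XX_129 was the Cast clone of both.

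Enzymes of metabolism included Alas1, the first enzyme of haem synthesis, with 3.78% in G4, 94.0% in E1.2 and 45.1% to 54.6% in the other 6 clones. Sirt5, a mitochondrial desuccinylase, was at 0.442% in NPC_XX_129 and 88.5% in C2. Galm, galactose mutarotase, came from 129 in G4 (94.4%) and from Cast in E1.2 and all 4 XY clones (0.598% to 13.2%). Galm was thus nearly a Cast gene in the XY clones.

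Further genes with high levels showed the same kind of pattern. Mt3, a zinc-binding metallothionein of the brain (chromosome 8, 96676507 to 96678048), was at 1.73% in G4 and 100% in mE6, with 0 counts in NPC_XX_129 and 33.7% to 45.9% in the other 5 clones. Anxa5, a phosphatidylserine-binding annexin, was at 99.0% and 93.6% in NPC_XX_129 and mE6 and at 1.297% in mC3. Ssbp4, a single-stranded DNA-binding protein, was at 7.81% in G4, 2.29% in mC3 and 93.9% in mG3. Trim35, a RING finger protein, had 0.0611% in NPC_XX_129 and 94.0% in G4, and 45.8% to 52.9% in the other 6 clones on at least 4857 counts. 1700001G11Rik overlaps Trim35 and had nearly the same values.

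Matrix genes were 7 of the set. Svep1, a large adhesion protein of the matrix, was at 99.9% in NPC_XX_129 and 2.85% in mE6. Fndc1, a fibronectin type III protein, was at 96.6%, 99.6% and 100% in G4, E1.2 and mG3 and at 2.36% in mC3, each on at least 2025 counts. Vit came from 129 in G4 (94.0%, 843 counts) and from Cast in NPC_XX_129 (8.80%, 125 counts). These calls rest on very different depths. Col9a3 was at 85.6% in mB4 and 11.8% in C2. Adamts16, a metalloproteinase of the matrix, was at 98.6% in C2 and at 9.57% to 12.5% in NPC_XX_129, E1.2 and mG3. Crispld2 was at 85.4% in mG3, against 9.92% in NPC_XX_129 and 5.03% in E1.2, so several of these genes lay near a limit.

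Genes of membrane traffic, cilia and host defence were also in the set. Golim4, a Golgi membrane protein, was at 96.8% in G4 (19858 counts) and 1.69% in mC3 (23204 counts), and at 43.8% to 49.2% in 5 other clones. Stx17, a syntaxin of autophagosomes, was at 92.5% in G4 and 10.3% in E1.2, and at 40.0% to 52.6% in the other 6. Tmem17, a protein of the ciliary transition zone, was at 86.2% in E1.2 and 0.538% in NPC_XX_129, and at 43.8% to 56.1% in the other 6. For these 3 genes the other clones with at least 100 counts all read both alleles. Fam111a, a host restriction protease, came from 129 in NPC_XX_129 (99.9%), G4 (100%) and mE6 (99.8%) and from Cast in C2 (0.347%), where it stood at 0.753 FPKM, against 3.08 to 28.1 FPKM in the other 7 clones. Gpr98, a very large adhesion receptor, was at 87.4% in NPC_XX_129 and at 5.74%, 13.8% and 8.31% in C2, E1.2 and mG3. The row 3110082D06Rik, Ptchd4 in RefSeq, was at 88.9%, 89.7% and 93.0% in NPC_XX_129, G4 and mE6 and at 1.80% in mG3. Fam111a and Ptchd4 thus had the same 3 clones on the 129 side.

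Other genes with provisional names had lower depth or fewer one-allele clones. Ccdc37 was at 86.9% in mE6 and 13.4% in E1.2, and 1600014C10Rik at 99.1% in mC3 and 13.8% in G4. Fam65b was at 87.2% in G4, against 5.12% in C2 and 14.3% in mG3, and Fam82a1 at 100% in mB4 (102 counts) and 0.279% in mC3. For 2700062C07Rik the share was 100% in NPC_XX_129 (148 counts), 1.82% in G4 and 0.971% in mC3, and XY clones mE6, mB4 and mG3 read both alleles. Vax2, a homeobox gene of the ventral eye, was at 88.8% in mG3 and 9.88% in G4, and it overlaps the antisense row Vax2os.

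The row 8430419L09Rik (Fam234b in RefSeq) used 1 allele in 7 of 8 clones, more than any other gene of the set. It came from Cast in NPC_XX_129, G4, E1.2, mC3, mB4 and mG3 (0.0131% to 5.76%), from 129 in mE6 (99.8%) and from both in C2 (45.9%). It was chosen after its values were seen, and both ES lines read both of its alleles (56.5% and 56.7%).

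Imprinted genes, whose allele is set by the parent of origin, made up 5 of the set, out of 61 on the list of imprinted genes used here, or 8.20%. Of all autosomal genes, 0.791% were in the set. Before the removal by name, 6 of the 61 met the limits. For Sgce, a paternally expressed sarcoglycan, the share was 0.107% to 2.97% in the 4 XY clones and 7.88% in G4, against 93.8% in NPC_XX_129 and 43.8% and 42.9% in C2 and E1.2. Peg13 was at 0.0615% to 0.155% in mC3, mE6 and mB4 and at 98.6% in NPC_XX_129. Airn, the long RNA antisense to Igf2r, was at 0.0462% to 0.728% in the same 3 XY clones and at 98.8% in NPC_XX_129. These 3 genes entered the set through NPC_XX_129, with Cast in the XY clones that could be read.

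Nap1l5 was at 96.6% in G4, against 5.82% in E1.2, 1.83% in mC3 and 0.815% in mG3. Cdkn1c, a cell cycle inhibitor, was at 100% in mC3 and mE6 and at 0.444% in mB4. Both therefore switched within a line. Of the other lists, only those that go by the gene symbol, and not by function, held members. Symbols of cell surface and adhesion gave 3 of 434 (Tmem17, Adamts16 and Gpr98), those of detoxification 2 of 131 (Cyp2j6 and Cyp2j9) and provisional names 17 of 1571. Marker lists of neural progenitors (21), astrocytes (7), neurons (8), fibroblasts and mesenchyme (10), pluripotency (5), microglia and blood (3), endothelium (4) and endoderm (2) gave none. Nor did a list for DNA methylation and chromatin repression (19), or symbol lists for mitochondria (162) and for immune and interferon genes (50). These lists do not cover all genes of a function: Sirt5, Grik2 and Grm5, described above, are in the set but on none of them. Lists with few genes in the table say little, since the set held 0.791% of autosomal genes (0.978% before the removal by name).

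Neighbouring genes were compared where 2 genes of the set lie within 1 Mb. Scd2 and Scd1, 87587 bases apart, used the same allele in E1.2 and mC3, but in C2, G4 and mG3 only 1 of the 2 genes used 1 allele. Hoxd9 and Hoxd8 are 2799 bases apart. Grm5 and Nox4, an NADPH oxidase gene 185260 bases away, shared the Cast allele in mB4 (9.60% and 0.376%), and each used 1 allele alone in 1 other clone. Of the 18 pairs, 5 overlap, and those shared the allele in 2 to 4 clones each and never had opposite alleles. Of the 13 others, 8 had a clone with the same allele in both genes and 4 had a clone with opposite alleles, 1 pair having both. Opposite alleles in the same clone occurred for Ssbp4 (2.29%) and Kcnn1, a potassium channel (85.2%), in mC3, and for Eya4 (100%) and 1110021L09Rik (0.157%) in NPC_XX_129. They also occurred for Fam82a1 (100%) and Galm (1.25%) in mB4, and for 2700062C07Rik (1.82%) and Celf4 (96.3%) in G4.

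Pairs of clones were compared over genes that used 1 allele in both. Pairs of XX clones had the same allele in 30 of 79 such cases (38.0%), pairs of XY clones in 49 of 94 (52.1%) and pairs of 1 XX and 1 XY clone in 82 of 219 (37.4%). The highest value of a single pair was 64.3% (mB4 and mG3, 9 of 14). Because every gene had to hold both alleles somewhere, the choice of genes partly sets these shares.

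Allele use in the ES lines was not used to choose the genes. Most were read from both alleles there: of the 76 genes with at least 100 counts in both ES lines, 54 (71.1%) had shares of 30% to 70% in both, against 87.6% of 10382 autosomal genes. A single allele was read for 5 of 77 genes (6.49%) in ES_XX, against 2.82% of all autosomal genes, and for 6 of 83 (7.23%) in ES_XY, against 2.47%. In the NPC clones, where the choice sets the value, 36.3% to 62.5% of the readable genes used 1 allele. An ES library averages over the cells of a line. Cells that use both alleles and a mix of cells that each use 1 cannot be told apart by such a share. A further 30 genes had fewer than 100 counts in both ES lines. Fibroblast and mesenchyme markers summed to 290 and 425 FPKM in these lines (Col1a1 at 10.2 and 24.9 FPKM), and their part in the ES shares was not tested.

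**Figure D3:**
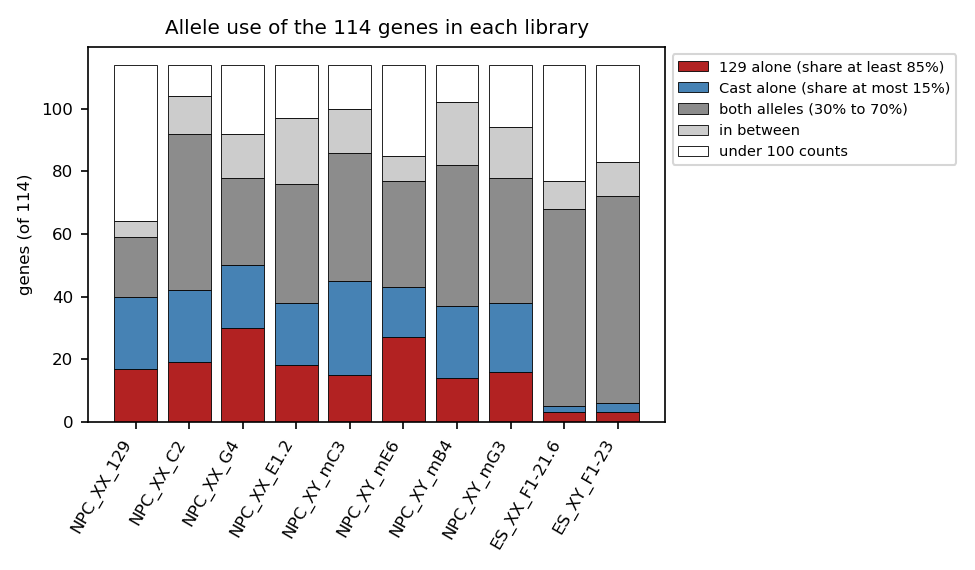
Number of the 114 genes (stacked bars) read from 129 alone, from Cast alone, from both alleles, in between, or with fewer than 100 counts, in each NPC clone and ES line. One-allele bars hold 37 to 50 genes in the NPC clones and 5 and 6 in ES_XX and ES_XY.

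Genes with 1 allele in ES cells were few, and 4 had it in both lines. Pla2g7 came from 129 in ES_XX (91.2%, 788 counts) and ES_XY (89.4%, 397 counts), although mC3 read Cast. Fbln5, an elastic fibre protein, came from 129 at 92.5% and 95.5%, on 134 counts in each line, while C2 had 0% on 482 counts. The joined row of the Raet1 genes, ligands of the NKG2D receptor, came from Cast in ES_XX (10.3%) and ES_XY (4.91%), as in 5 NPC clones, with 86.7% in NPC_XX_129. These near-identical copies are uncertain, and so is the unnamed model NR_045991 (13.5% and 9.15%). One line alone had it for Fndc1 (87.2% in ES_XX), Peg13 (9.50% in ES_XY) and A430107O13Rik (100% in ES_XY, 95% interval 96.9% to 100%, 119 counts).

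Expression was lower in clones that used 1 allele. For the 94 genes with both kinds of clone, mean log2(FPKM + 1) was lower in one-allele than in both-allele clones for 76 (80.9%), with a median difference of -0.50. Among all 1072 autosomal genes with both kinds of clone, 78.0% were lower and the median was -0.44, so the genes of the set were close to the rest. In CPM (counts scaled to a fixed effective library total), the total of the one-allele clones stood at a median log2 ratio of -0.74 to that of the both-allele clones. The used allele alone, set against the same allele's part in both-allele clones, had a median ratio of 0.11 on the log2 scale. Over the 1072 autosomal genes that median was 0.07. For 72 of the 94 genes (76.6%) the used allele was within 2-fold, against 74.6% of the 1072. It was more than 2-fold higher for 19 (20.2%), against 14.9%, and more than 2-fold lower for 3 (3.19%), against 10.4%. Fewer expressing cells and less RNA per cell cannot be told apart in these bulk libraries.

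**Figure D4:**
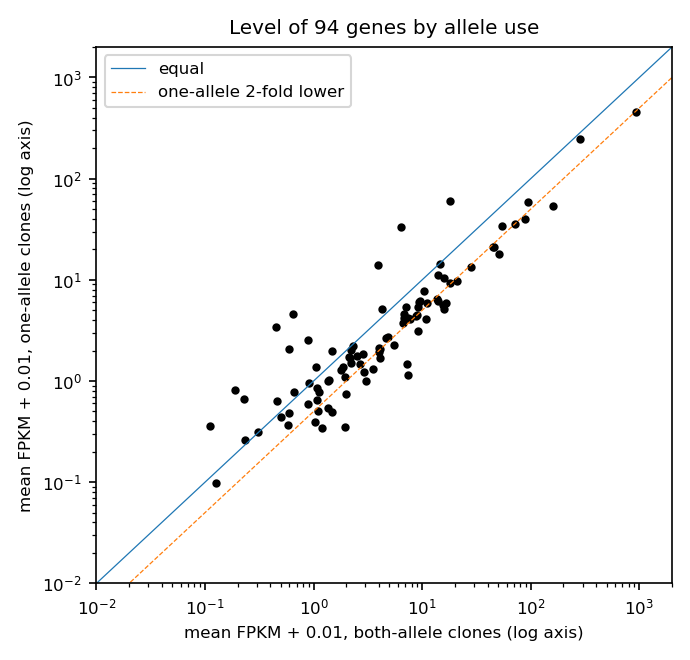
Mean FPKM + 0.01 of one-allele clones (vertical, log axis) against both-allele clones (horizontal, log axis) for 94 genes, with lines of equal level and of one-allele clones 2-fold lower. Most points, 76 of the 94 on the log2(FPKM + 1) scale, lie below the line of equal level.

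On the log2(FPKM + 1) scale the largest drops were those of Scd1 and Kcnk13, with means of 54.0 FPKM in one-allele and 159 FPKM in both-allele clones for Scd1, and of 1.12 and 7.47 FPKM for Kcnk13. The same direction held for Anxa5 (18.1 FPKM in one-allele and 51.0 FPKM in both-allele clones). The opposite was seen in Col9a3, a cartilage collagen chain, at 33.4 FPKM in its 2 one-allele clones and 6.32 FPKM in its 3 both-allele clones, and in Cdkn1c, at 4.63 FPKM in 3 one-allele clones and 0.632 FPKM in 1 both-allele clone.

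NPC clones were compared with ES lines on the level of both alleles together. Of the 114 genes, 43 passed an adjusted p of 0.05 in edgeR's quasi-likelihood test with the line as a covariate, 25 higher and 18 lower in NPC clones, and 50 had an unadjusted p under 0.05. Over all 14561 genes tested, 63.0% passed (66.9% at an unadjusted p under 0.05), 33.3% higher and 29.7% lower. DESeq2 called 37 higher and 20 lower of 111, against 66.4% of all genes in either direction. Limma on log2(FPKM + 1) called 21 higher and 22 lower of 108, against 69.7%, so the balance between the directions depended on the method. The XY clones alone, set against both ES lines, gave 36 higher and 22 lower, against 65.2%. By their labels these libraries form 1 set (GUR) and the XX clones another (GEI), so a difference between library sets can enter the main test. The median log2 change was 0.57 in the set and 0.11 over all genes. Because the choice needs 100 counts in at least 2 NPC clones, genes silent in NPCs could not enter.

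Grm5 had 22.7, 22.6, 32.6 and 63.8 CPM in the XX clones and 55.6, 121, 72.5 and 82.9 CPM in the XY clones, against 0 counts in ES_XX and ES_XY. The level was at least 2737-fold higher in NPC clones, taking 3 counts over the ES lines as the floor (edgeR adjusted p = 1.86e-05). Hoxd8 ranged between 6.63 and 14.1 CPM over the 8 NPC clones (mean 11.1 ± 2.52, SD), while neither ES line had a count, which makes it at least 511-fold higher (edgeR adjusted p = 3.11e-06). Both genes were thus switched on in every NPC clone, whichever allele was read.

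Vit, encoding the matrix protein vitrin, and Egfem1 were at least 114-fold and at least 84.6-fold higher, again against 0 counts in ES lines, but Egfem1 also had 0 counts in NPC_XX_129 (edgeR adjusted p = 0.0129 and 0.0109). Lingo4, a leucine-rich repeat membrane protein, averaged 34.4 ± 21.1 CPM (SD, n = 8) in NPC clones and 0.0292 ± 0.0214 CPM (SD, n = 2) in ES lines, or 10.16 ± 1.44 (SE) on the log2 scale (edgeR adjusted p = 0.000275). Kcnk13 averaged 39.3 ± 51.7 CPM in NPC clones, where C2 reached 164 CPM, and 0.0940 ± 0.0132 CPM in ES lines (log2 change 8.66 ± 2.20, edgeR adjusted p = 0.00725). The calls of Vit, Egfem1 and Kcnk13 were lost when either ES line was left out (edgeR adjusted p from 0.0541 to 0.0698). With limma on log2(FPKM + 1), Vit (adjusted p = 0.243) and Kcnk13 (adjusted p = 0.0817) did not pass, and Vit did not on log2(FPKM + 0.1) either (adjusted p = 0.117).

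Among lipid genes, Scd2 rose by 2.36 ± 0.45 (SE) on the log2 scale, to 8119 ± 2646 CPM (SD, n = 8) in NPC clones, against 1567 ± 234 CPM (SD, n = 2) in ES lines (edgeR adjusted p = 0.00163). Its lowest NPC value, 4240 CPM in the Cast clone C2, was still above 1733 CPM in ES_XX. Insig1 rose by 1.23 ± 0.41 (77.8 ± 26.8 CPM in NPC clones and 33.3 ± 12.7 CPM in ES lines, edgeR adjusted p = 0.0262). Scd1 did not pass (log2 change 1.52 ± 1.06, edgeR adjusted p = 0.235), with 12.5 CPM in G4 and 206 to 645 CPM in the other 7 clones.

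Counts by role are given beside the 33.3% of all genes that were higher and the 29.7% that were lower, and the role groups were formed after the values were seen. Of 8 lipid genes 3 were higher and 0 lower, and of 7 matrix genes 3 were higher (Svep1, Vit and Adamts16) and 0 lower. Developmental factors had 6 of 13 higher, among them Hoxd9, Hoxd8 and Tbx15, and 1 lower. Of 9 genes of channels, receptors and neuronal proteins 3 were higher (Grm5, Kcnk13 and Cntnap1) and 1 lower (Kcnn1). Of 5 imprinted genes 3 were higher (Sgce, Airn and Nap1l5) and 0 lower. The 5 genes of inflammation and cell death and the 5 of DNA repair and editing each had 0 higher and 1 lower (Il3ra and Apobec3). Metabolic enzymes had 0 of 6 higher and 4 lower, or 3 of 5 lower without Acyp2, whose direction is in doubt.

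Apobec3, which restricts retroviruses, had the largest fall. It was at 0 to 3.51 CPM in the 8 NPC clones, against 114 CPM in ES_XX and 99.8 CPM in ES_XY, with a fitted change of -9.15 ± 1.37 (SE) in log2 (edgeR adjusted p = 0.000374). The fitted size depended on the ES line, at -5.65 without ES_XX and -10.72 without ES_XY, and was -6.71 without the line covariate. The row that joins Cmtm7 and Cmtm8, chemokine-like membrane proteins, fell by 6.03 ± 0.75 on the log2 scale (edgeR adjusted p = 0.000129). Galm averaged 4.67 ± 5.19 CPM in NPC clones and 60.3 ± 9.54 CPM in ES lines, a log2 change of -3.71 ± 0.85 (edgeR adjusted p = 0.0041). Alleles of these genes were thus read at low levels in NPC clones.

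Ctsz, a lysosomal cathepsin, averaged 0.593 ± 0.692 CPM in NPC clones and 16.7 ± 0.0136 CPM in ES lines (log2 change -5.10 ± 1.41, edgeR adjusted p = 0.0112), and this call was lost without either ES line (edgeR adjusted p = 0.124 without ES_XX and 0.0510 without ES_XY). Eml2, a microtubule-associated protein, averaged 1.57 ± 1.41 CPM in NPC clones and 21.6 ± 2.17 CPM in ES lines (log2 change -4.46 ± 0.69, edgeR adjusted p = 0.000438), and the change was -2.93 without ES_XY. For Acyp2 the fitted change of -5.06 ± 1.87 (edgeR adjusted p = 0.0398) went against the means, which were 2.34 ± 2.68 CPM in NPC clones and 0.833 ± 0.238 CPM in ES lines. The XX clones had 0 counts, and 4.78, 4.48, 6.54 and 2.89 CPM were found in mC3, mE6, mB4 and mG3. Its direction is therefore not given as a result, and without Acyp2 the count of lower genes is 17 in place of 18. Without ES_XX, fewer genes were called both in the set and over all genes, and only 1 ES library remained. The median log2 change was then 0.73 in the set and 0.13 over all genes.

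**Figure D5:**
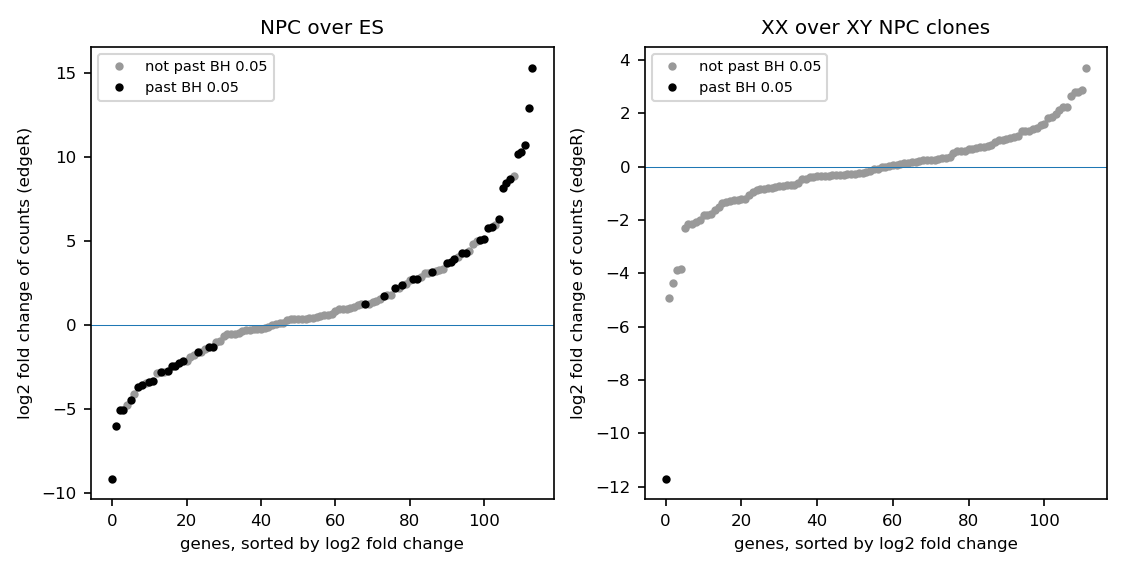
Log2 fold changes of counts (edgeR) for the genes tested in the set, sorted by size, NPC over ES (left, 114 genes) and XX over XY NPC clones (right, 112 genes); black points passed an adjusted p of 0.05. On the left 25 genes are called higher and 18 lower, and on the right 1 gene, Acyp2, is called lower.

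The listed genes known to maintain allele states were not in the set, but the levels of most changed with the cell type. Of 21 tested genes of DNA methylation and chromatin repression, 6 were higher and 11 lower in NPC clones by edgeR, with a median log2 change of -0.68. Dnmt3b, a de novo DNA methyltransferase, fell by 5.79 ± 0.28 (SE, edgeR adjusted p = 1.02e-06) and Uhrf1, which guides maintenance methylation, by 2.02 ± 0.25 (edgeR adjusted p = 0.000123). Dnmt3a rose by 1.07 ± 0.24 (edgeR adjusted p = 0.00364) and Tet3, a methylcytosine dioxygenase, by 2.52 ± 0.20 (edgeR adjusted p = 9.52e-06). Smchd1, Rnf2, Setdb1 and Ctcf did not pass.

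XX and XY NPC clones were compared on the level of these genes, and 1 gene passed the test. Of 112 tested, 1 was lower in XX clones and 0 were higher by edgeR at an adjusted p of 0.05, against 0.412% lower and 0.876% higher (1.29% in all) of 13591 genes, and 24 had an unadjusted p under 0.05, against 23.9% of all genes. DESeq2 called 17 of the 112 (15.2%), 9 higher and 8 lower, against 13.6% of 14184 genes. Both shares were near those of all genes. The 1 call was Acyp2, at 0 counts in the 4 XX clones and 4.67 ± 1.50 CPM (SD, n = 4) in the XY clones, at least 590-fold lower on the floor of 3 counts over the group (edgeR adjusted p = 0.0151). The call was lost without mC3 (edgeR adjusted p = 0.0569), mE6 (0.0655) or mB4 (0.0640). Line, sex chromosomes and library set coincide in this comparison and cannot be told apart.

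Wide gaps between the means were also found without a call. Crispld2 averaged 3.04 ± 1.92 CPM in XX and 63.1 ± 50.6 CPM in XY clones (SD, n = 4 each), or -4.38 ± 1.19 (SE) in log2 with an edgeR adjusted p of 0.0938, and the groups overlapped. Svep1 averaged 119 ± 136 CPM in XX and 16.0 ± 10.7 CPM in XY clones without overlap, or 2.89 ± 0.88 (SE) in log2 with an edgeR adjusted p of 0.115. These 2 genes were picked after their values were seen. Nsmce1 was at 22.2 ± 5.89 CPM in XX and 37.4 ± 2.12 CPM in XY clones (SD, n = 4 each), without overlap, but did not pass (edgeR adjusted p = 0.0760). Trim35 was at 198 ± 136 CPM in XX and 459 ± 29.1 CPM in XY clones, also without overlap and not past the test (edgeR adjusted p = 0.204). The one-allele clones of both Nsmce1 and Trim35 were the XX clones NPC_XX_129 and G4 (17.9 and 16.8 CPM for Nsmce1, 194 and 180 CPM for Trim35). The XX clones C2 and E1.2 were at 24.8 and 29.2 CPM for Nsmce1 and at 374 and 42.9 CPM for Trim35. The part of allele use in these gaps was not tested. The change of level between NPC and ES cells was compared between the lines by an interaction term: 0 of the 114 genes passed in edgeR, against 0.101% of 14848 genes (0.0808% with a larger and 0.0202% with a smaller change in the XX line, and 11.0% at an unadjusted p under 0.05), and 7 had an unadjusted p under 0.05. Each ES line was 1 library, so the spread in this test came from the NPC clones alone and the ES libraries were assumed to vary like them. The XX change was measured across library sets and the XY change within 1 set. Line and library set therefore cannot be told apart in this term either. For Grm5, Hoxd8, Vit and Egfem1, at 0 counts in both ES lines, the term gave no usable estimate (SE of at least 142 on the log2 scale).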

How the data were processed

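Polyadenylated RNA of 8 NPC clones and 2 ES lines had been sequenced in pairs of reads. The table deposited by the authors gives allele-informative counts per gene, the share of counts from 129 (a ratio) and FPKM. Per the submitters' processing notes TopHat 1.4.0, Cufflinks 1.3.0, SAMtools and mm9 were used; which step made which column and whether strand was used are not given in the sources used here. Repeat libraries of 1 XX and 1 XY clone were not analysed here.

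The limits of the allele rule were a minimum of 100 counts and shares of 85% and 15%. The genes and lists were chosen with earlier results of these data known. Counts were tested with edgeR 4.0.16 (TMM, filterByExpr, quasi-likelihood) over the whole table, with Benjamini-Hochberg adjustment, and with DESeq2 1.42.0 and limma 3.58.1 as alternatives. The interaction test was added after the data were seen. In simulated counts, 4-fold changes in 200 genes were recovered at 100% in both comparisons. False calls were 3.85% of all calls for NPC against ES and 5.66% for XX against XY clones. The simulation gave every gene the same fixed dispersion and changed only genes above a count floor. It therefore checks the steps of the test, and not what the test can find at the spread of these clones. Members are named by rules on depth, level, change, list, neighbours and the limits. Other members named as examples of a role were picked after their values were seen, and the values of some members are not reported here. Gene coordinates are mm9, 1-based; promoters are RefSeq, GRCm38.p6. Clones are separate lines, but each gave 1 library. Counts cover only positions that differ between the strains, and one read may have been counted at several, so intervals may be too narrow.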

Additional observations from a re-analysis of the deposited data

Results flagged for a closer look

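Of 59 named genes examined across the 8 NPC clones, 10 had 1 clone far from the other 7 by Dixon's criterion. For normally distributed values chance gives about 1 in 20. The share over all autosomal genes was not computed, and some genes were named for their level or change. No excess over other genes can therefore be read from this count. Values are log2(CPM + 0.1). In NPC_XX_129, 2010002N04Rik was at -3.32 (0 CPM, against 2.36 to 15.8 CPM in the other clones), Mt3 at -3.32 (0 CPM, against 7.85 to 55.6), Egfem1 at -3.32 (0 CPM, against 1.36 to 3.26), Ssbp4 at -1.93 (0.163 CPM, against 36.6 to 113) and the joined Raet1 row at 2.56 (5.80 CPM, against 60.4 to 135). Thus 5 of the 10 low values were in NPC_XX_129.

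In E1.2, Trim35 was at 5.43 (42.9 CPM, against 180 to 495) and 1700001G11Rik, which overlaps it, also at 5.43, while both alleles were read there. Scd1 was at 3.65 in G4 (12.5 CPM, against 206 to 645), a clone that read 129 alone. Airn was at -0.26 in mG3 (0.733 CPM, against 52.7 to 213), and 1600014C10Rik at 1.49 in mE6 (2.71 CPM, against 10.2 to 31.8). What sets these clones apart was not tested.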

How the results depend on the processing

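No paired analysis was possible because the clone numbers match no XX clone to an XY clone and no clone to an ES library. Stricter share limits left 72 genes (90% and 10%) or 47 (95% and 5%). Leaving out 1 clone at a time left 87 to 102 genes, and minimums of 50 and 200 counts gave 141 and 85.

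ES one-allele genes of the set numbered 8 (minimum of 50 counts), 3 (200 counts) and 0 (major allele at least 95%) in ES_XX. In ES_XY they numbered 2 (200 counts) and 3 (at least 95%). The share over all autosomal genes was not computed at these settings. Whether the set still exceeds all genes there is therefore not known. Leaving out 1 NPC clone at a time gave 22 to 32 genes of the set higher and 15 to 19 lower in NPC against ES. Over all genes it gave 4618 to 5016 higher and 4095 to 4407 lower. Leaving out an ES line leaves 1 ES library, and fewer genes were then called in the set and over all genes. The set's median log2 change was 0.73 without ES_XX and 0.44 without ES_XY, against 0.13 and 0.23 over all genes. For XX against XY clones, leaving out 1 clone at a time gave 0 to 3 higher and 0 to 2 lower. Without NPC_XX_129, 3 were higher, and 4 of 114 were called in all, against 496 of 13823 over all genes. Without C2, 2 were lower, and 59 of 13751 genes were called over all. Without mC3, mE6 or mB4, 0 were called in the set and 7 to 11 over all genes. DESeq2 called 9 higher and 8 lower of 112, against 1932 of 14184 over all genes. Limma with a pseudocount of 1 called 1 higher and 3 lower of 104, against 409 of 11977. With 0.1 it called 3 lower of 104, against 402 of 11977. Acyp2 changed sign between NPC and ES under 4 settings (single libraries left out gave -8.82 to 2.22): 0.37 with limma and a pseudocount of 1, 2.22 without ES_XX, 1.48 without the line covariate and 2.48 without the XX clones' library set. The causes were not tested. One gene per overlapping locus, chosen as an alternative after seeing the data, left 109 genes. Counts under 100 limit how many clones can be read.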
